A study of Gossypium hirsutum with 18 samples.

Results

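In the roots of 3 cotton (Gossypium hirsutum) genotypes, 16 of the 54508 genes in the deposited table were read in every library of Wild Mexico Jack Jones (WMJJ, moderately resistant to root-knot nematode, RKN) and were at or near 0 in every library of Acala SJ2 (susceptible) and Acala NemX (resistant). These genes were chosen from the measured values themselves: each had a normalized value of at least 5 in all 6 WMJJ libraries and a value below 0.5 in all 12 Acala libraries. The contrast of WMJJ with the Acala lines is therefore the choice, not a result, and no test was made on it. Roots were collected from plants 23 days old, which had received either 5000 second-stage juveniles (J2) of Meloidogyne incognita per plant at 12 days (rkn) or none (ctl). The groups were WMJJ_rkn, WMJJ_ctl, SJ2_rkn, SJ2_ctl, NemX_rkn and NemX_ctl, each of the 6 with 3 biological replicates. The sources name no transgene, each genotype is 1 line, and the samples were root tissue, in which fewer cells of a type and less RNA per cell cannot be told apart.

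Upland cotton is an allotetraploid that carries an A and a D subgenome, so most genes have a related copy on a partner chromosome. Accessions of a crop species can differ in whether a gene is present in the genome, in whether it is transcribed, and in how far its sequence has diverged, and wild or exotic accessions are a common source of such differences. Second-stage juveniles of RKN enter the root near its tip and turn cells of the vascular tissue into feeding sites, around which galls form. Resistance to RKN is attributed by the study to chromosome D02 in WMJJ and to A11 and D11 in NemX. The reads were pseudo-aligned to transcripts of another accession, TM-1, so the genes counted here are all annotated in TM-1. A gene that is missing from the Acala lines, a gene that they do not transcribe in roots, and an allele too diverged for its reads to be assigned cannot be told apart in these values.

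The identifiers carry no gene names in the file. The RefSeq gene table at hand held 0 identifiers of this style (Gohir), so the 16 genes could not be looked up there. With no sequence or function at hand, they are described here by level, spread, response and position. Values are normalized per library in a way that is not stated, and gene lengths were not at hand, so a higher value in 1 gene than in another cannot be read as a higher level per length. In the low values of each library a peak marks about what 1 read is worth, between 0.082 and 0.322 in the WMJJ libraries and between 0.11 and 0.358 in the Acala libraries. A value of 5 then stood for about 15.5 to 61.0 reads in WMJJ, and a value of 0.5 for about 1.40 to 4.55 reads in Acala. The column totals ran from 957278 to 999410 in WMJJ and from 852215 to 1096550 in Acala.

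Among the 16 genes, the mean over the WMJJ libraries ran from 7.20 to 37.9, with a median of 13.6. Of these, 1 gene averaged above 20, 12 genes lay between 10 and 20, and 3 genes below 10. Gohir.D07G185200 stood above the rest, at 37.6, 54.1 and 39.6 in WMJJ_rkn and 31.3, 30.0 and 34.5 in WMJJ_ctl. In the Acala libraries it was at 0 in all but SJ2_ctl2 (0.199) and NemX_rkn3 (0.30). Its lowest WMJJ value, 30.0, was thus far above every Acala value, and no other of the 16 genes reached 30.0 in any library.

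**Figure D1:**
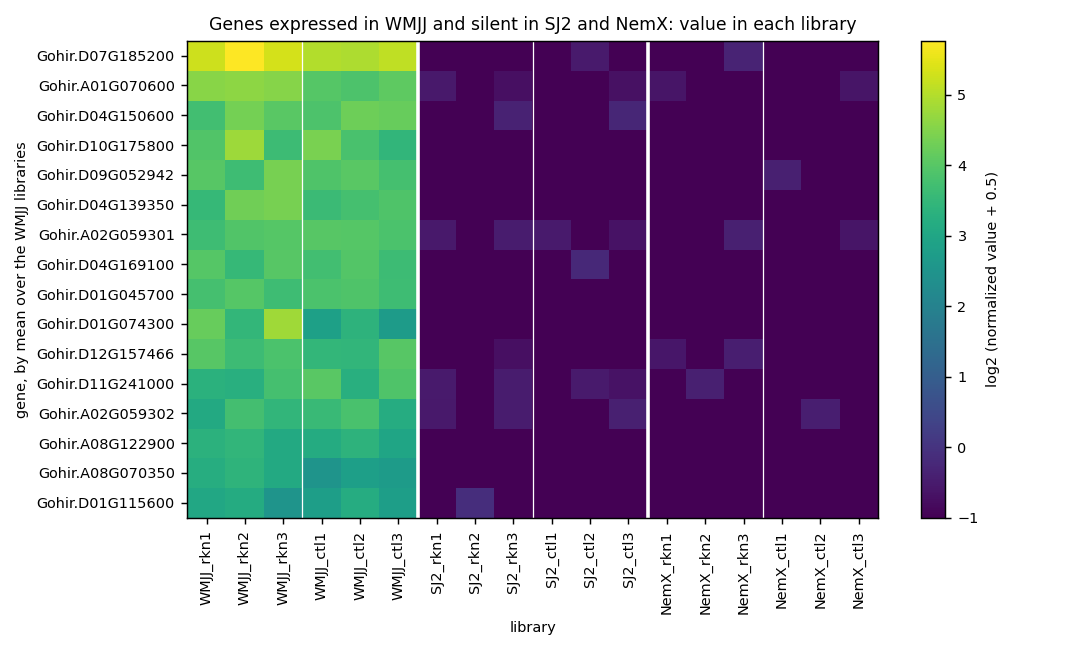
Log2 of the normalized value plus 0.5 for the 16 genes (rows, by WMJJ mean) in the 18 libraries (columns, with WMJJ at the left, then SJ2 and NemX, infested before control within each). Dark cells at −1 are values of 0; the WMJJ columns are light in every row, and the Acala columns stay dark apart from 30 faint cells, none above 0.431.

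Gohir.A01G070600 had the next highest mean, 19.4. It was at 23.1, 24.3 and 22.7 in WMJJ_rkn and at 15.3, 14.3 and 16.6 in WMJJ_ctl, so that the infested and the control libraries did not overlap. In Acala it was above 0 in 5 of the 12 libraries, with 0.193 in SJ2_rkn1 as its highest value.

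Gohir.D04G150600 was at 12.8, 20.1 and 16.0 in WMJJ_rkn and 14.2, 18.9 and 17.8 in WMJJ_ctl. Gohir.D10G175800 was at 14.9, 26.9 and 11.9 in WMJJ_rkn and 20.6, 13.6 and 10.5 in WMJJ_ctl. Gohir.D09G052942 was at 15.5, 12.2 and 20.3 in WMJJ_rkn and 14.4, 16.0 and 13.3 in WMJJ_ctl. The infested and control libraries overlapped in all 3 of these genes, and the replicates of Gohir.D10G175800 spread most widely, over a range from 10.5 to 26.9.

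At the low end, Gohir.D01G115600 averaged 7.20. It was at 7.86, 8.51 and 5.16 in WMJJ_rkn and 6.47, 8.72 and 6.49 in WMJJ_ctl. Gohir.A08G070350 averaged 7.49, with 8.88, 10.1 and 8.15 in WMJJ_rkn against 5.18, 6.53 and 6.13 in WMJJ_ctl. Gohir.A08G122900 averaged 8.99, and its values lay between 7.35 and 10.4. The last 2 genes were listed at 0 in all 12 Acala libraries.

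The remaining 8 genes had means between 10.9 and 15.0. Gohir.D01G045700, listed at 0 in every Acala library, had values from 12.1 to 15.3 and a mean of 13.5 ± 1.27 (SD, n = 6). Gohir.D04G169100 lay between 11.0 and 15.7, Gohir.D12G157466 between 10.6 and 15.6, and Gohir.D11G241000 between 9.07 and 16.0. Gohir.D01G074300, Gohir.D04G139350 and the neighbours Gohir.A02G059301 and Gohir.A02G059302 are taken up below.

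The values in Acala were few and small. Of the 192 Acala values of the 16 genes, 30 were above 0, 20 of the 96 in SJ2 and 10 of the 96 in NemX, and the highest was 0.431 (Gohir.D01G115600 in SJ2_rkn2, where 1 read was worth about 0.358). By treatment, 17 were in infested and 13 in control libraries. In all, 6 genes were listed at 0 in all 12 Acala libraries: Gohir.A08G070350, Gohir.A08G122900, Gohir.D01G045700, Gohir.D01G074300, Gohir.D04G139350 and Gohir.D10G175800. A further 5 genes were above 0 in 1 or 2 Acala libraries, and 5 genes in 3 or more.

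The 5 genes with the most frequent traces were Gohir.A02G059301 (6 libraries), Gohir.A01G070600 and Gohir.D11G241000 (5 each), Gohir.A02G059302 (4) and Gohir.D12G157466 (3). Each was above 0 in at least 1 library of both Acala lines. SJ2_rkn3 and SJ2_ctl3, the 2 Acala libraries in which 1 read was worth least (0.11 and 0.126), also had the most genes above 0, 6 and 5 of the 16. SJ2_rkn2, in which it was worth most (0.358), had 1. The libraries between did not follow that order: NemX_ctl3 (0.154) and NemX_rkn1 (0.158) had 2 each, SJ2_rkn1 (0.19) had 4 and NemX_rkn3 (0.25) had 3. The part of depth in these counts was not tested.

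Because the limit of 0.5 stands for fewer reads in a shallow library, the choice is not equally strict in all of them. Just inside the lower limit for WMJJ were Gohir.D01G115600, with 5.16 as its lowest WMJJ value, and Gohir.A08G070350, with 5.18. Just outside were Gohir.A05G188200 (4.45) and Gohir.D07G022650 (4.37). Just inside the upper limit for Acala were again Gohir.D01G115600, with 0.431 as its highest Acala value, and Gohir.D04G169100, with 0.353. Just outside were Gohir.D11G293700 (0.580) and Gohir.A04G019550, which had at least 18.2 in every WMJJ library and 0.736 in NemX_ctl1.

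**Figure D2:**
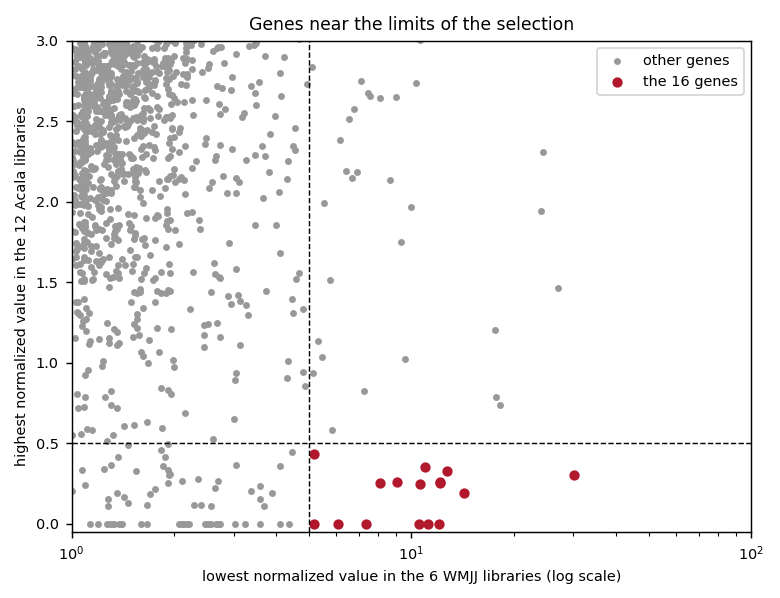
Each point is a gene, placed by its lowest value in the 6 WMJJ libraries (horizontal, log scale) and its highest value in the 12 Acala libraries (vertical, shown up to 3); dashed lines mark the limits of 5 and 0.5. The 16 genes (red) fill the lower right field, with 6 of them at 0, and 1 other gene, at 0.580, lies close above the field.

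A choice on 17 of the 18 libraries can only add genes to the 16, since the limits hold for them in every library, and any gene it adds must fail in the library kept out. It is therefore a description of near misses and no check of the choice. A single library kept out 3 genes: Gohir.A01G064050 had 4.10 in WMJJ_rkn2, Gohir.D09G215050 had 1.94 in WMJJ_ctl1, and Gohir.A04G019550 had 0.736 in NemX_ctl1. By the study's figures WMJJ_ctl1 had the lowest share of pseudo-aligned reads of the 18 libraries. It was also the shallowest WMJJ library, with 1 read worth about 0.322.

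The choice was also made on 1 treatment and read in the other. On the 9 control libraries it found 28 genes, among them the 16, which by the limits themselves hold in both treatments. In the infested libraries 19 of these kept at least 5 in all WMJJ_rkn libraries, and 25 stayed below 0.5 in all infested libraries of both Acala lines. The 3 that did not were Gohir.A03G017160, which was between 5.67 and 7.77 in SJ2_rkn and between 0.135 and 0.411 in SJ2_ctl, Gohir.A06G044600, with up to 0.784 in NemX_rkn, and Gohir.D11G293700, with up to 0.580 in SJ2_rkn. These 3 genes, and those named in the next paragraph, were picked out after their values had been seen.

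Of the 9 genes that fell short in WMJJ_rkn, Gohir.D09G154600 was furthest apart between treatments, with 0.684 to 1.36 in WMJJ_rkn against 10.7 to 15.6 in WMJJ_ctl. On the 9 infested libraries the choice found 26 genes, again with the 16 among them by the limits themselves. In the control libraries 19 of them kept at least 5 in WMJJ_ctl, and 21 stayed below 0.5 in both Acala lines. Gohir.A11G280700 was at 29.6 to 54.7 in WMJJ_rkn and 48.0 to 81.1 in WMJJ_ctl. In the Acala lines it was below 0.5 in every infested library, but between 3.64 and 9.96 in SJ2_ctl and between 1.21 and 1.30 in NemX_ctl. Its silence in Acala thus held in infested and not in control roots, whereas for the 16 genes the limits themselves require it in both.

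The response to infestation inside WMJJ was not used by the choice, apart from the floor of 5, which keeps out any gene that falls near 0 in either treatment. With limma on the log2 of the value plus 0.5 over all 46813 genes with a mean of at least 1, a list that all 16 genes entered through their WMJJ values, 0 of the 16 were called higher and 0 lower in WMJJ_rkn than in WMJJ_ctl where a call needed an adjusted p (Benjamini-Hochberg) under 0.01 and more than 1 log2 unit of change. Over all genes tested, 5.60% were called higher and 4.84% lower (10.4% in either direction). Over the 23947 genes at 5 or more in all 6 WMJJ libraries, 4.92% were called higher and 4.23% lower (9.15% in either direction). At an unadjusted p below 0.05, 2 of the 16 were higher and 0 lower, against 17.8% and 16.2% of all genes tested. No other tool was run. The standard errors of the 16 genes ran from 0.27 to 0.33 on the log2 scale. They come from a fit that pools the spread of all 18 libraries, 12 of which were at or near 0 for these genes. They and the adjusted p therefore do not measure the spread between WMJJ replicates alone. With only the 6 WMJJ libraries fitted, 0 of the 16 were called higher and 0 lower. The share called over all genes was not computed for that fit, so its count has nothing to be set beside.

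The largest difference was in Gohir.D01G074300. Its values were 17.7, 10.7 and 27.6 in WMJJ_rkn and 6.70, 9.91 and 6.10 in WMJJ_ctl, without overlap, and it was listed at 0 in all 12 Acala libraries, infested or not. The difference in log2 was 1.18 (SE 0.33, adjusted p = 0.0115 by limma), just short of the threshold on p. The call depended on the settings. The gene was called with 1 in place of 0.5 added before the log2 (adjusted p = 0.00347), without the intensity trend (0.00229) and without WMJJ_rkn2 (log2 fold change 1.52, adjusted p = 0.00270), but missed the threshold when only the 6 WMJJ libraries were fitted (adjusted p = 0.0466) or without WMJJ_rkn3 (log2 fold change 0.86, adjusted p = 0.0942). Over the alternatives its adjusted p ran from 0.00229 to 0.141.

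Infested and control libraries did not overlap in 3 further genes, all higher in WMJJ_rkn. The difference in log2 was 0.59 (SE 0.27, adjusted p = 0.133 by limma) for Gohir.A01G070600, whose values are given above. It was 0.57 (SE 0.28, adjusted p = 0.159) for Gohir.A08G070350 and 0.43 (SE 0.28, adjusted p = 0.298) for Gohir.D07G185200. None of the 3 reached a log2 fold change of 1 under any alternative tried. Together with Gohir.D01G074300 these were 4 of the 16 genes whose infested libraries all lay above their control libraries, and 0 genes lay the other way. Over all genes tested, 19.1% lay without overlap in the first direction and 17.5% in the other.

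Their replicates spread unequally. Gohir.A01G070600 averaged 23.4 ± 0.814 in WMJJ_rkn and 15.4 ± 1.18 in WMJJ_ctl (SD, n = 3 each), while Gohir.D01G074300 averaged 18.7 ± 8.48 in WMJJ_rkn and 7.57 ± 2.05 in WMJJ_ctl. The 18-library fit pools this spread with that of the 12 Acala libraries near 0. With limma on the 6 WMJJ libraries alone, the adjusted p of Gohir.A01G070600 was 0.0169, and without the intensity trend it was 0.0217. Without the trend Gohir.A08G070350 had an adjusted p of 0.00511, under the threshold on p, but its log2 fold change of 0.57 was under that on fold.

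**Figure D3:**
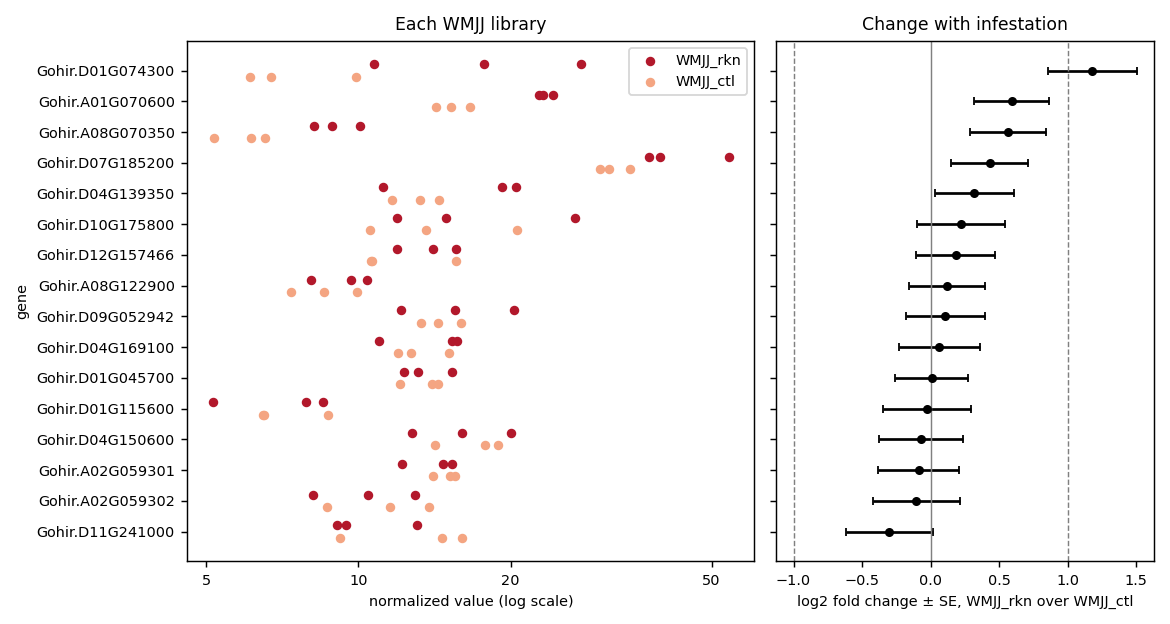
Left, the normalized value of each WMJJ library (log scale) for the 16 genes, infested above control in each row. Right, the log2 fold change of WMJJ_rkn over WMJJ_ctl with its standard error from limma, dashed lines marking −1 and 1; only Gohir.D01G074300, at 1.18, lies beyond a line, and the others lie between −0.30 and 0.59.

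The other 12 genes overlapped between treatments. Gohir.D04G139350 was at 11.2, 19.2 and 20.5 in WMJJ_rkn and 11.7, 13.2 and 14.5 in WMJJ_ctl. Its log2 fold change was 0.32 (SE 0.29, adjusted p = 0.480 with limma). The lowest was Gohir.D11G241000, at 9.45, 9.07 and 13.1 in WMJJ_rkn and 16.0, 9.20 and 14.6 in WMJJ_ctl, where the difference was −0.30 log2 units (SE 0.32, adjusted p = 0.554). Gohir.D01G045700 had the value nearest to 0, at 0.01 (SE 0.27). The median over the 16 genes was 0.11, beside −0.0039 over all genes tested, and 11 of the 16 (68.8%) were above 0, beside 49.5% of all genes tested. Summed over the 16 genes, the values were 233, 271 and 261 in WMJJ_rkn and 215, 219 and 210 in WMJJ_ctl, a sum to which Gohir.D07G185200 gave the largest part.

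The spread between replicates, as the SD of log2 values, had a median over the 16 genes of 0.28 in WMJJ_rkn and 0.19 in WMJJ_ctl. In the 14829 genes that were at 5 or more in all 18 libraries and had a WMJJ mean in the range of the 16, the medians were 0.20 in both. In WMJJ_rkn the SD was largest in Gohir.D01G074300 (0.66), Gohir.D10G175800 (0.59) and Gohir.D04G139350 (0.46), and smallest in Gohir.A01G070600 (0.05).

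By their identifiers, 5 of the 16 genes lay on the A subgenome and 11 on the D subgenome, over 10 chromosomes, where 49.0% of the genes of the table lay on A and 50.6% on D. Chromosomes D01 and D04 had 3 genes each, A02 and A08 had 2 each, and A01, D07, D09, D10, D11 and D12 had 1 each. With a lower minimum of 2 in WMJJ, which 51 genes met, 24 lay on A and 27 on D, or 47.1% and 52.9%. Chromosome D02, which the study names for the resistance of WMJJ, had 0 of the 16 among its 2028 genes in the table, and 2 of the wider 51. Gohir.D02G083150 came close: it was at 5.04 to 13.8 in WMJJ_rkn and 3.25 to 9.20 in WMJJ_ctl, and at 0 in all Acala libraries (chosen after its values had been seen).

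**Figure D4:**
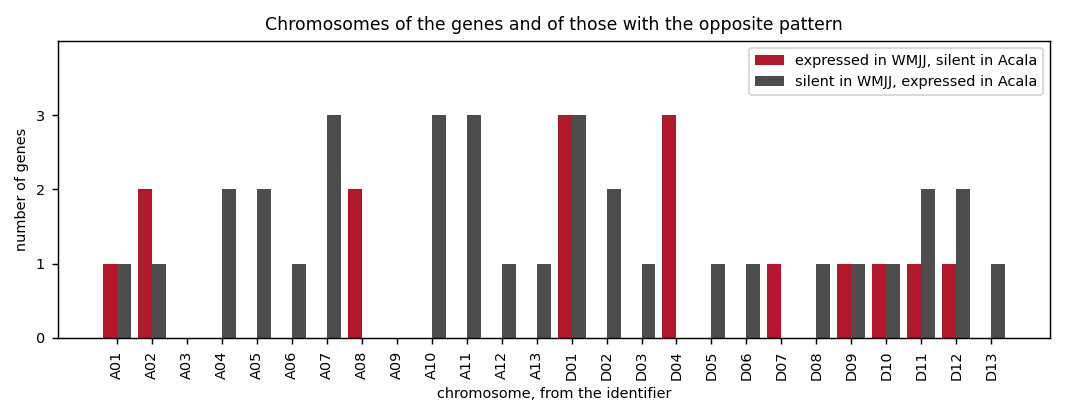
Number of genes on each of the 26 chromosomes, read from the identifiers, for the 16 genes (red) and for the genes with the opposite pattern (grey; 1 of the 35 could not be placed). No chromosome has more than 3 of either, D04 has 3 of the 16 and 0 of the opposite pattern, and D02 has 0 and 2.

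The same limits applied the other way round, at least 5 in all 12 Acala libraries and below 0.5 in all 6 WMJJ libraries, were met by 35 genes. For a genotype other than WMJJ they were met by few: 1 gene was at 5 or more only in SJ2, 0 only in NemX, 8 were below 0.5 in NemX alone and 0 in SJ2 alone. No test was made of these counts, which rest on the same libraries.

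The choice did not use the numbering of the identifiers. Most identifiers of the table end in 00, and 12.1% do not. Among the 16 genes, 6 (37.5%) had another ending: Gohir.A02G059301, Gohir.A02G059302, Gohir.A08G070350, Gohir.D04G139350, Gohir.D09G052942 and Gohir.D12G157466. The share was 39.2% of the 51 genes at a minimum of 2, 14.3% of the 35 genes of the opposite pattern, and 5.77% of the 23947 genes at 5 or more in all 6 WMJJ libraries. No test was made of these shares, and what the endings stand for is not given in the sources used here.

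Neighbours were read from the order of the identifiers, which was not checked against coordinates, and those named here were picked out after their values had been seen. Gohir.A02G059301 and Gohir.A02G059302 were the only 2 of the 16 genes within 10 genes of another, and they followed each other directly. The first was at 12.2, 14.7 and 15.4 in WMJJ_rkn and 15.5, 15.2 and 14.0 in WMJJ_ctl. The second was at 8.11, 13.0 and 10.4 in WMJJ_rkn and 11.5, 13.8 and 8.67 in WMJJ_ctl. In Acala neither exceeded 0.253. The gene before them, Gohir.A02G059300, had a mean of 1.12 in WMJJ, 0.267 in SJ2 and 0.718 in NemX. Its group means were low in SJ2_rkn (0.172), SJ2_ctl (0.363), NemX_rkn (0.169) and WMJJ_rkn (0.288). They were higher in NemX_ctl (1.27) and WMJJ_ctl (1.96). The gene after them, Gohir.A02G059433, had means of 6.33, 3.72 and 6.45 in WMJJ, SJ2 and NemX. It was at 4.14 or more in every WMJJ library and at 1.17 or more in every Acala library. Only the gene after the pair was thus read in every library, and the gene before it was near 0 in SJ2. Whether the pair share sequence is not known here, and pseudo-alignment could have divided reads between them.

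Gohir.A08G122900 lay next to a gene of the same pattern at a lower level. The gene after it, Gohir.A08G123000, was between 2.19 and 4.81 in WMJJ and 0 in all 12 Acala libraries. The gene 4 places after Gohir.A08G122900, Gohir.A08G123450, was between 1.94 and 6.28 in WMJJ and at most 0.30 in Acala. Between them, Gohir.A08G123300 ran the other way, with a mean of 0.579 in WMJJ, 5.80 in SJ2 and 2.31 in NemX. Its SJ2 mean joined 8.91 in SJ2_ctl and 2.68 in SJ2_rkn. Gohir.A08G122800, just before Gohir.A08G122900, had 7.43, 9.75 and 7.28 in WMJJ, SJ2 and NemX. At a minimum of 2 in WMJJ, chromosome A08 had 7 of the 51 genes, the most of any chromosome, and 2153 of the 54508 genes of the table. It was picked from the 26 chromosomes after the counts had been seen, and no test was made of them.

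Gohir.D04G139350 had neighbours of the opposite pattern. The gene after it, Gohir.D04G139500, was at 0 in all 6 WMJJ libraries and between 1.66 and 4.40 in the 12 Acala libraries. Gohir.D04G139850, 3 places on, was at 0 in all 6 WMJJ libraries and between 1.53 and 4.36 in Acala. Gohir.D04G139700, which lies between them, was read in every genotype, with a mean of 3.92 in WMJJ, 2.46 in SJ2 and 1.48 in NemX.

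At the full limits, 0 of the 16 genes had a gene of the opposite pattern within 10 genes, beside 1.22% of all genes of the table. With a minimum of 1 in Acala for the neighbour, a limit set after the data had been seen, 2 of the 16 had one, Gohir.D04G139350 and Gohir.D01G115600, beside 3.92% of all genes. The neighbour of Gohir.D01G115600, 4 places on, was Gohir.D01G116200, at most 0.0961 in WMJJ and between 1.56 and 3.80 in Acala. A neighbour of their own pattern at the full limits was found for 2 of the 16, the pair on A02, each being the neighbour of the other. The share over all genes was not computed at these limits. With a minimum of 1 in WMJJ for the neighbour, also set after the data had been seen, the number was 3, with Gohir.A08G122900 added, beside 2.91% of all genes.

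**Figure D5:**
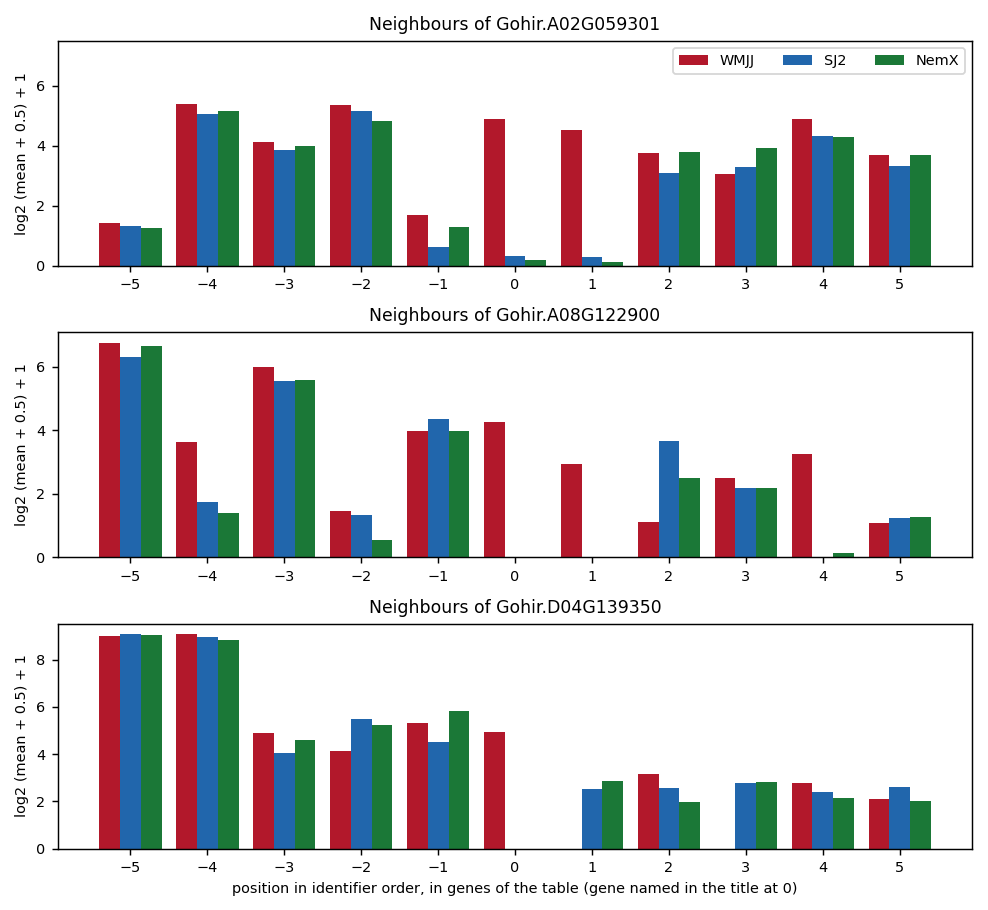
Log2 of the mean value plus 0.5, shifted up by 1 so that a value of 0 has no bar, for the 5 genes on each side of Gohir.A02G059301, Gohir.A08G122900 and Gohir.D04G139350 in WMJJ (red), SJ2 (blue) and NemX (green), over 6 libraries each. At position 0 the SJ2 and NemX bars are absent or, in the top panel, short (means of 0.122 and 0.0675). In the lowest panel WMJJ has no bar at 1 and 3, where SJ2 and NemX have means of 2.35 to 3.15.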

How the data were processed

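Per the submitters' processing notes and the study's methods, adapters were removed with Trimmomatic 0.39, kallisto 0.46.1 assigned the reads to the TM-1 UTx release, and tximport summarised transcripts by gene. The deposited table holds a normalized signal for 54508 genes in 18 libraries. Its normalization and gene filter are not stated. According to the study, some libraries came from another preparation kit, a stranded one, and both MiSeq and HiSeq instruments were loaded. Which libraries went with which kit or instrument is not given in the sources used here, so their part was not tested.

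Columns were matched to libraries by name. Genes were chosen by the limits of 5 and 0.5 on the deposited values. The members and lists were chosen with earlier results of these data known. The response was fitted in R 4.3.3 with limma 3.58.1 on log2(value + 0.5), with 1 coefficient for each of 6 groups, an intensity trend and Benjamini-Hochberg adjustment over genes with a mean of at least 1 (46813 kept, 7695 left out). Fold changes on this scale understate changes of low values. The fit was tested on simulated data in which the groups shared 1 spread per gene. Only genes of higher mean were changed there, so that test does not cover genes near 0 in Acala. The value of 1 read was taken from the first peak of the low values in each library and holds only roughly, since the multiples differ slightly between genes. Genes were named for the highest and lowest WMJJ means, the largest responses, position in runs and nearness to the limits; no gene qualified as called or as lying on D02. Any further gene was named after its values were seen.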

Additional observations from a re-analysis of the deposited data

How the results depend on the processing

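The number of genes chosen rested on the limits. It was 51 with a minimum of 2 in WMJJ and 10 with a minimum of 10. It was 8 with a maximum of 0.25 in Acala, 21 with a maximum of 1, and 6 when every Acala value had to be 0. It was 28 on the control libraries alone and 26 on the infested libraries alone. With equal library totals it was again 16. With each library left out, which can only add genes, it lay between 16 and 17. The number called higher in WMJJ_rkn, 0, was 1 with 1 added before the log2, without the intensity trend and at an adjusted p below 0.05, and lay between 0 and 1 with each WMJJ library left out. The gene was Gohir.D01G074300 each time, and the other 15 genes were not called in any of the 18 settings. The number called lower was 0 in all of them. The shares called over all genes were not computed in these settings. The number with an opposite neighbour was 2 with a minimum of 1 in Acala for the neighbour, chosen after seeing the data, and 0 in the other settings tried. The number with a neighbour of the same pattern, 2, was 3 with a minimum of 1 in WMJJ for the neighbour, also chosen after seeing the data.

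The median log2 fold change of the 16 genes ran from 0.01 to 0.17 with each WMJJ library left out. With a mean of at least 5 as the filter, only 6 of the 16 genes were tested, and their median was 0.27. Same-numbered WMJJ libraries correlated in their deviations from the group means at 0.07, 0.18 and 0.44. The highest correlation with a control library of another number was 0.13, 0.13 and −0.20. Replicate 3 of WMJJ thus went together across treatments, and replicate 1 did not. For replicate 3 of SJ2 the 2 values were 0.36 and −0.16, but for replicate 3 of NemX they were −0.22 and 0.22. For replicate 1 of NemX they were −0.19 and 0.35. By what 1 read was worth, replicate 3 was the deepest library of every group but NemX_rkn, where replicate 1 was. What same-numbered libraries, or the deepest ones, have in common is not stated and was not tested. A replicate block follows the numbers and may miss what these libraries share. With a replicate block 0 of the 16 genes were called in either direction, and their median stayed at 0.11. Depth limits what silence means: in the shallowest Acala library, SJ2_rkn2, a value of 0.5 stood for about 1.40 reads.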
